A study of Homo sapiens with 16 samples.

Results

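The translational efficiency (TE) of each mRNA was determined at baseline in unperturbed breast cancer cells, as the ribosome-protected footprint (RPF) signal of a transcript relative to its RNA signal in the same line. Transcripts were kept where the mean value was at least 10 in the RPF and in the RNA libraries of a line, which left 8331 of the 10799 transcripts listed with parental cells and 4300 of the 8980 listed with sgControl cells. In all, 8334 of the 10823 transcripts of the series entered in at least 1 line and 4297 in both. The log2 ratio of RPF to RNA was centred on the median of the line, so that a value of 0 marks the typical mRNA, a positive value a well translated one and a negative value a poorly translated one.

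The parental cells were MDA-MB-231, a human breast cancer line that lacks the 3 receptors used to class such tumours and is labelled poorly metastatic. The sgControl cells are the same line made to express dCas9-KRAB for CRISPR interference, with a control guide and after puromycin selection, so they differ from the parental cells by the repressor, the guide and the selection. Both were cultured in high-glucose DMEM with 10% serum to about 70% confluence. Each line had 2 RPF and 2 RNA libraries, the RNA being taken from the lysates used for footprinting, so that 8 of the 16 libraries of the series were used. Each line stands in a separate table, which the authors normalised on its own, and line and table cannot be told apart in any comparison below. Nothing in the labels says which replicates came from separate cultures beyond their replicate numbers, so the p-values measure only the spread between these libraries.

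Ribosomes cover the part of an mRNA that is being decoded, and nuclease leaves the fragments they protect, so the footprint signal per unit of RNA rises with the number of ribosomes that a transcript carries. Initiation is usually the limiting step, and it is set by features of the 5′ UTR such as upstream start codons, hairpins bound by regulatory proteins, and the terminal oligopyrimidine (TOP) tract through which growth signals control the mRNAs of the translation machinery. In cancer cells these same routes tune iron storage, polyamine synthesis, the stress response and ribosome production.

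Sequences that stand for the classes described below are given first, from GENCODE transcripts on hg38. Ferritin mRNAs carry in the 5′ UTR a hairpin that iron regulatory proteins bind to restrain translation when iron is low, and its loop is shown in capitals, at chr11:61967573-61967602 (minus strand, exon 1 of FTH1) and chr19:48965335-48965364 (plus strand, exon 1 of FTL).
FTH1: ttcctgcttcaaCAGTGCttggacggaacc
FTL: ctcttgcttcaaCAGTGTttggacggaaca
The upstream reading frame of AMD1, a polyamine enzyme, is shown with its start and stop codons in capitals (chr6:110874796-110874816, plus strand, exon 1).
AMD1: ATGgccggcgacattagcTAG
The annotated 5′ ends of a pair of ribosomal protein mRNAs are shown with the opening run of pyrimidines in capitals (RPS6, chr9:19380222-19380236, minus strand; RPL12, chr9:127451392-127451406, minus strand).
RPS6: CTCTTTTCCgtggcg
RPL12: CCTCTCggctttcgg
The last pair comes from mRNAs that differ in base composition, on which the lines parted. It shows codons 2 to 11 with each G or C at the third position of a codon in capitals, for EIF5B (chr2:99337558-99337587, plus strand), a GC-poor mRNA with 38.4% GC, and for MRPL41 (chr9:137552085-137552114, plus strand), a GC-rich mRNA with 66.7% GC. They were chosen after their values were seen.
EIF5B: ggGaaGaaacaGaaaaaCaaGagCgaagaC
MRPL41: ggCgtCctGgcCgcagcGgcGcgCtgCctG

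The 4 libraries of a line were close to one another. The normalised RNA totals were 8326052 and 8187245 in parental cells and 5448458 and 5415889 in sgControl cells, and the RPF totals were 679726 and 674054 against 158011 and 164684. How many footprint reads lie behind these RPF values is not known. The RPF values of sgControl cells were smaller, and fewer of its transcripts passed the RPF minimum. The replicate RNA libraries had a Spearman rho of 0.995 across transcripts in each line, and the RPF libraries of 0.957 in parental and 0.872 in sgControl cells. The transcripts listed for PLCG2 in parental cells and for an unnamed transcript (ENST00000536684) in sgControl cells took 5.60% and 18.1% of the RNA signal with mean RPF values under 10, and neither entered. Of the markers of the line, VIM, CD44, AXL and CAV1 had RNA values of 2404 or more in all 4 RNA libraries. ESR1, PGR, CDH1, PTPRC and DCN were not listed in either table, and ERBB2 had RNA values of 812 and 797 in parental and of 160 and 159 in sgControl cells. EPCAM had RNA values of 46.5 and 40.0 in parental and of 65.7 and 86.9 in sgControl cells. COL1A1 had 9.97 and 21.0 in parental cells and was not listed with sgControl cells.

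TE spanned a wide range within each line. Between the 5th and the 95th percentile it ran from -2.06 to 1.95 in parental cells, a 16.1-fold range, and from -1.65 to 1.76 in sgControl cells, a 10.7-fold range. The spread between replicates was far smaller, with an SD of 0.29 and 0.30 on the log2 scale, and the replicate values correlated across transcripts with a Pearson r of 0.947 and 0.923. Calls were made by limma in each line against the median transcript, at a Benjamini-Hochberg adjusted p under 0.05 and a distance of at least 1 on the log2 scale (2-fold). In parental cells 1665 transcripts (20.0%) were called well translated and 1701 (20.4%) poorly translated. In sgControl cells these were 675 (15.7%) and 688 (16.0%). Calls are relative to the median mRNA, so their balance follows from the centring. Against the ratio of library totals the median transcript itself lay at 0.62 in parental and 0.88 in sgControl cells, and all values below are relative to it. The RPF minimum removed 2416 transcripts with measured RNA in parental cells and 4655 in sgControl cells, the members nearest to it having RPF means of 10.0028 inside and 9.99036 outside in parental cells. Transcripts with few footprints for their RNA are thus missing, among them 76 of the 3242 parental transcripts and 286 of the 2178 sgControl transcripts with an RNA mean of at least 500. The RNA libraries were made from total RNA, and whether the RNA signal of such transcripts is from mRNA that is poorly translated was not tested.

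The RPF levels of the lines were alike and the TE values were not. Over the 4297 transcripts measured in both, the log2 RPF level had a Spearman rho of 0.92 between parental and sgControl cells, the RNA level of 0.54 and TE of 0.20 (Pearson r 0.26). The points are transcripts, which are not independent replicates, and no p is given. Of the 1002 transcripts well translated in parental cells within this set, 142 were so in sgControl cells, or 14.2% of the former and 21.1% of the 673 of the latter. Of the 672 poorly translated ones, 249 were shared, or 37.1% of the parental and 36.2% of the 688 sgControl calls. Over all transcripts tested in sgControl cells, 15.7% were well and 16.0% poorly translated. The 14.2% was thus near the share of all transcripts, and the 37.1% was above it. In 97 of the 4297 the calls were opposite, with 51 transcripts well translated in parental and poorly in sgControl cells and 46 the other way round.

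**Figure D1:**
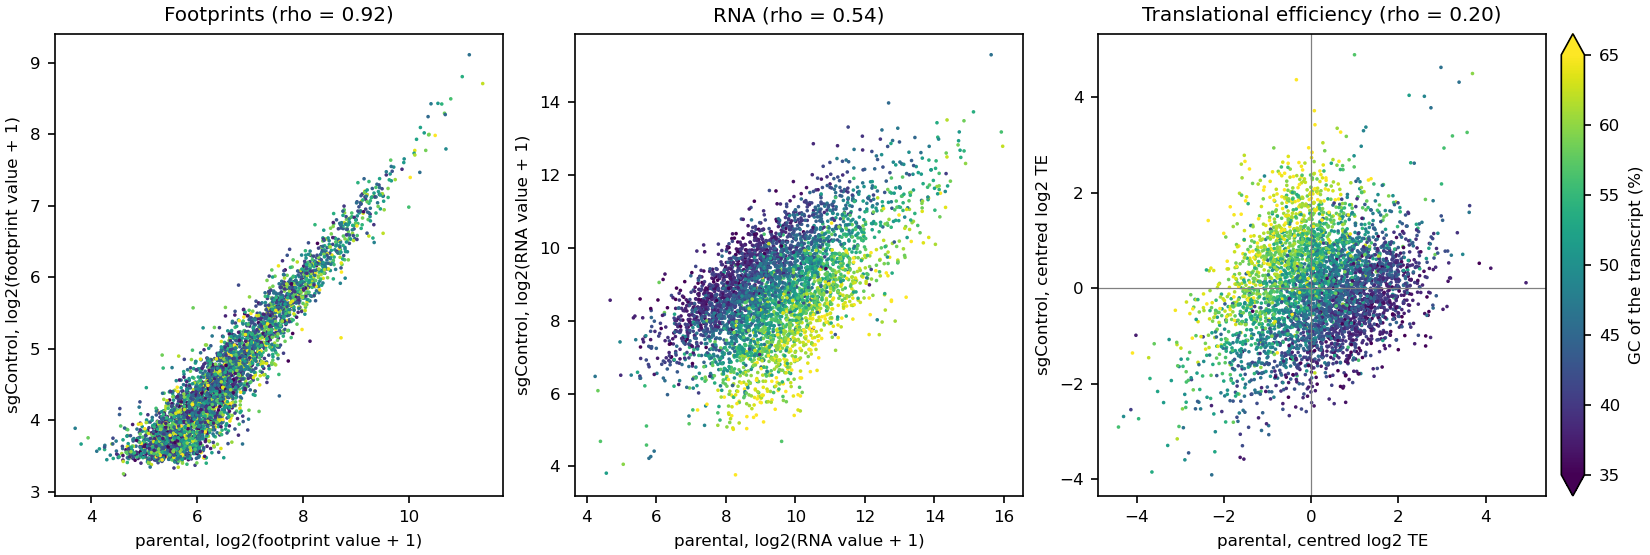
Each point is a transcript measured in both lines, with its parental value on the x axis and its sgControl value on the y axis, for log2 footprint values, log2 RNA values and centred log2 TE; colour gives the GC content of the transcript for those matched to the annotation. The footprint values lie along a narrow band with colours mixed (rho 0.92), whereas the RNA values split into layers of GC (rho 0.54) and TE forms a broad cloud (rho 0.20).

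The opposite calls were divided by base composition. The 51 transcripts that were well translated in parental and poorly in sgControl cells had a median GC content of 38.5%. The 46 with the reverse calls had 61.6%, against 48.0% for all transcripts measured in both. EIF5B, the factor that joins the ribosomal subunits at the start codon, had RPF values of 135 and 138 over RNA values of 156 and 171 in parental cells, and of 36.8 and 21.6 over 1081 and 1090 in sgControl cells. Its TE was 2.74 ± 0.12 (SE; adjusted p 5.16e-07, limma) in the former and -1.03 ± 0.25 (SE; adjusted p 0.00968, limma) in the latter. MRPL41, a protein of the mitochondrial ribosome, had the opposite pattern, with RPF values of 55.7 and 42.5 over RNA values of 1225 and 1044 in parental cells and of 22 and 18.5 over 60.4 and 60 in sgControl cells. Its TE was -1.52 ± 0.15 (SE; adjusted p 3.1e-05, limma) and 2.65 ± 0.20 (SE; adjusted p 9.83e-05, limma). The RNA value of EIF5B was thus low in parental and high in sgControl cells, and that of MRPL41 the reverse. Both genes were picked from the opposite calls, and the tables that hold them were normalised separately.

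Across all transcripts the GC trend lay in the RNA libraries. The rho of TE with GC content was -0.51 and -0.52 in the parental replicates (n = 8157 transcripts) and 0.42 and 0.45 in the sgControl replicates (n = 4210). RNA alone had a rho with GC of 0.39 and 0.38 in parental and of -0.28 and -0.29 in sgControl libraries, and RPF alone of 0.02 and -0.01 and of 0.04 and 0.08. From the lowest to the highest of 5 GC classes of equal size, the median TE went from 1.10 to -0.61 in parental and from -0.43 to 0.78 in sgControl cells. In the lowest class 55.6% of transcripts were well translated in parental and 2.6% in sgControl cells, and in the highest class 3.1% and 41.9%. The lines that share a table with them had the same signs, with a rho of TE with GC of -0.49 and -0.46 in MDA-LM2 and of 0.46 and 0.43 in sgHNRNPC cells. Whether the difference in RNA composition belongs to the cells or to the making of the libraries was not tested.

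**Figure D2:**
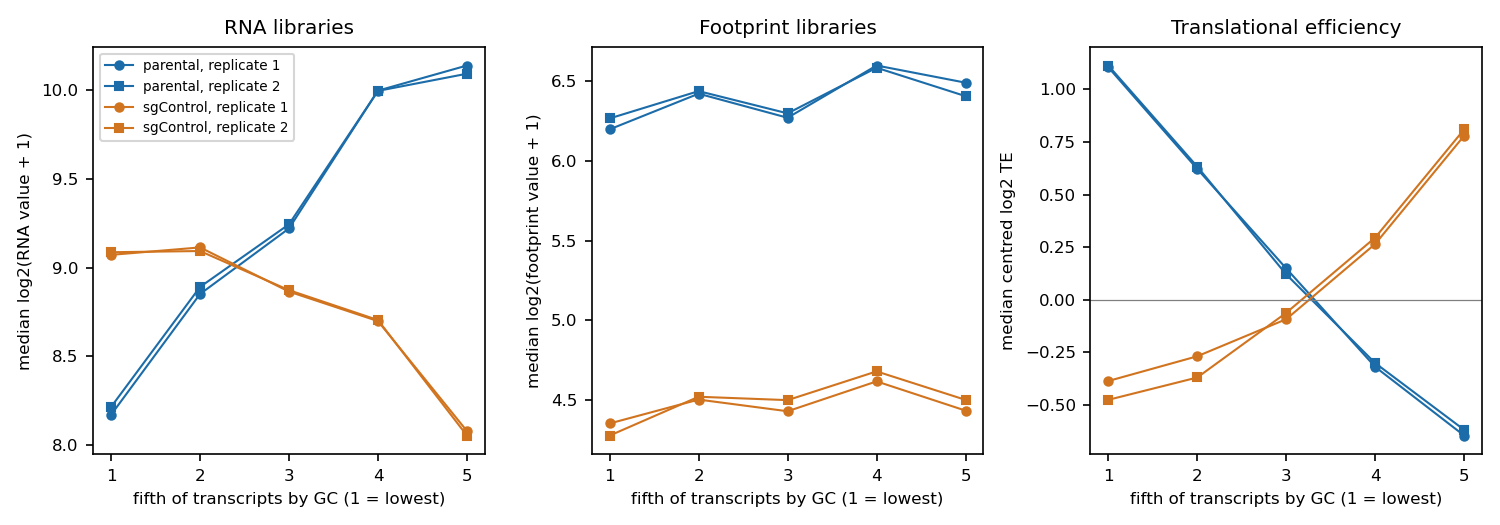
Medians of log2 RNA, log2 footprint and centred log2 TE values (y axes) in 5 classes of equal size of the transcripts measured in both lines, ordered by GC content (x axis), with a line for each replicate library. The RNA medians rise with GC in parental and fall in sgControl cells, the footprint medians move little, and median TE runs from 1.10 to -0.61 in parental and from -0.43 to 0.78 in sgControl cells.

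Within transcripts of like composition the lines were closer. The Pearson r of TE between the lines was 0.57 to 0.67 in each of the 5 GC classes. Removing the GC trend within each line, an alternative chosen after the trend was seen, raised it from 0.26 to 0.65 over 4207 matched transcripts, and adding a correction for length to 0.67. The length correction puts RNA, which is counted over the whole transcript, on the length of the coding region from which footprints come. After GC levelling, 192 transcripts were well translated in both lines, 310 were poorly translated in both and 14 had opposite calls (8 and 6). Values on this levelled scale are named as such below, and the values as measured are given first.

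The mRNAs of ribosomal proteins, through which growth signals set the output of the translation machinery, lay below the typical mRNA in both lines. All 74 cytosolic ribosomal protein mRNAs were measured in both lines, and none was well translated and 41 poorly in parental cells, against 1 and 28 in sgControl cells. Their median TE was -1.28 (2.43-fold below the typical mRNA) and -0.90 (1.86-fold below), and 63 and 61 of the 74 lay below the median of all transcripts. Poorly translated calls were shared by 14 of them. They made up 8.16% ± 0.06 (SD, n = 2) of the RNA signal of the parental transcripts tested and 4.07% ± 0.16 of the footprint signal, and 5.78% ± 0.09 of RNA and 4.04% ± 0.15 of footprints in sgControl cells. With length and GC levelled their medians were -1.33 and -1.005. Centred on library totals, they were -0.66 and -0.01. RPL41, the smallest protein of the ribosome (ENST00000501597, chr12:56116590-56117832), was the lowest member in both lines. Its RPF values were 133 and 125 over RNA values of 20435 and 20300 in parental cells, and 25.9 and 23.5 over 2909 and 3105 in sgControl cells, which gave a TE of -4.30 ± 0.07 (SE) and -2.69 ± 0.11 (SE). The coding region of RPL41 is 78 of the 469 bases of the transcript. With length and GC levelled it had -2.64 and -1.02, the latter close to the sgControl median of the group. RPL12, of the ribosomal stalk base, followed as measured with -3.52 ± 0.07 and -2.16 ± 0.16. RPS6, the kinase target of the small subunit whose TOP end is printed above, had -0.96 ± 0.07, which did not reach the distance of 1, and -1.58 ± 0.09. RPS4X was the highest member in parental cells (0.62) and was poorly translated in sgControl cells (-1.31). RPS29 was the highest in sgControl cells (1.23), on a listed isoform of 7062 bases that codes for 204, so that its value depends on which isoform the cells express.

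Other mRNAs known to carry a TOP tract lay on the same side. Of 15 measured, 6 were poorly translated in parental and 8 in sgControl cells, 1 and 0 were well translated, and the medians were -0.93 and -1.09. EEF1A1, the elongation factor that brings aminoacyl-tRNA, had RPF values of 2287 and 2210 over RNA values of 49539 and 52210 in parental cells and of 515 and 593 over 40697 and 40553 in sgControl cells. Its TE of -1.51 ± 0.06 and -2.01 ± 0.08 was called poorly translated in both, as was that of TPT1, the tumour protein TCTP (-2.60 and -2.37). PABPC1, the cytoplasmic poly(A)-binding protein, was poorly translated in sgControl cells (-2.88) and at -0.97 in parental cells. The sequence rule alone carried little of this. Among transcripts whose annotated 5′ end opens with C and 4 further pyrimidines, 24.9% of 397 were poorly translated in parental and 18.3% of 218 in sgControl cells, against 20.6% and 16.2% of the others. Without the 39 ribosomal protein mRNAs among them their median was -0.09 and -0.04. Annotated ends can miss the true start site, and the isoforms listed for EEF1A1 and TPT1 did not open with this tract. Of 30 translation initiation factors in parental cells, 6 were well translated (20.0%, the share of all transcripts) and 2 poorly (median 0.16). In sgControl cells 1 and 9 of 26 were so (median -0.34), the 9 being 34.6% against 16.0% of all transcripts. EIF4G2, an initiation factor homologue, was the lowest in both (-1.37 and -1.93). None of the 20 aminoacyl-tRNA synthetases was poorly translated in either line. Well translated were 8 and 2 (40.0% and 10.0%, against 20.0% and 15.7% of all transcripts), with medians of 0.55 and 0.33. On the per length scale these medians were -0.20 and -0.33, so the direction of that group depended on the scale.

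**Figure D3:**
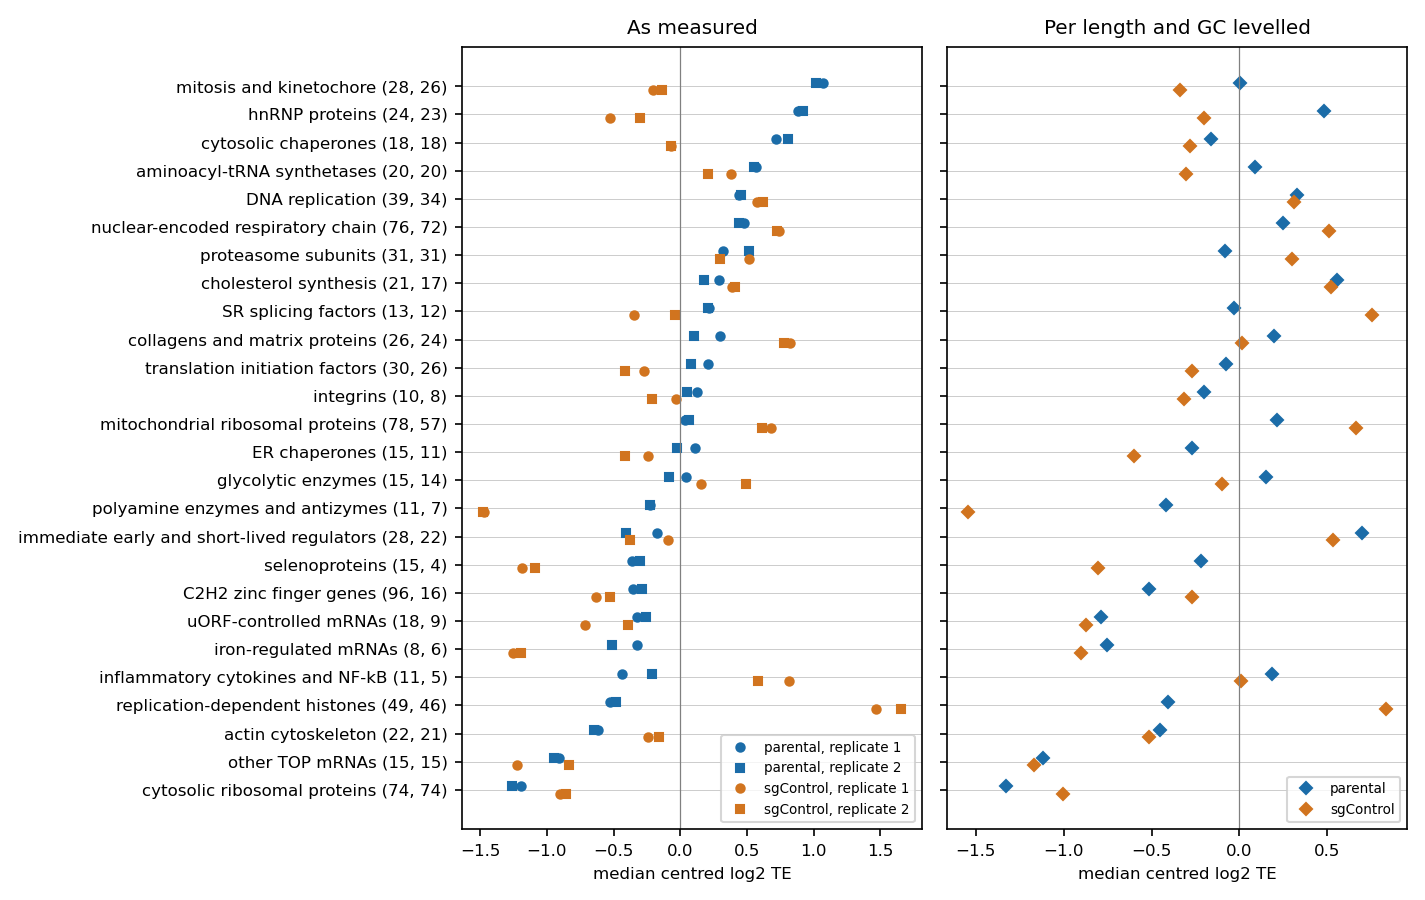
Median centred log2 TE (x axis) of 26 groups of mRNAs, with the number of transcripts measured in parental and sgControl cells in brackets; points on the left are the replicates of each line, and diamonds on the right are the medians after correction for length and levelling of GC. Ribosomal proteins and other TOP mRNAs lie at or below -0.83 in every replicate, whereas histones lie near -0.5 in parental and above 1.4 in sgControl cells.

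The mRNAs of ferritin, which stores iron, were poorly translated in both lines. FTL, the ferritin light chain (ENST00000331825, chr19:48965309-48966879), had the lowest parental TE of the 243 abundant transcripts that were poorly translated in both lines. In parental cells its RPF values were 97.2 and 114 over RNA values of 17958 and 18102, and in sgControl cells 33.3 and 27.2 over 3992 and 4513. The TE was -4.42 ± 0.09 (SE; adjusted p 2.12e-08, limma), or 21.3-fold below the typical mRNA, and -2.91 ± 0.13 (SE; adjusted p 2.16e-05, limma), or 7.5-fold below. FTH1, the ferritin heavy chain (ENST00000273550, chr11:61964285-61967634), had RPF values of 84.4 and 108 over 5648 and 5789 in parental and of 23.3 and 30.4 over 6037 and 6078 in sgControl cells, with a TE of -2.89 ± 0.11 and -3.59 ± 0.12. Both stayed below -2.6 in both lines with length and GC levelled. CDC42BPA, a kinase whose iron response element lies in the 3′ UTR, was poorly translated in both (-1.17 and -2.22). EPAS1, a hypoxia-inducible factor with such an element in its 5′ UTR, was poorly translated in parental cells (-1.43) and fell under the RPF minimum in sgControl cells. TFRC, the transferrin receptor, whose elements stabilise the mRNA, was well translated in parental cells (1.55) and had -0.23 in sgControl cells. SDHB was called in neither line, nor was SLC11A2 in parental cells, the line in which it passed the minimum. In total 4 of 8 were poorly translated in parental and 3 of 6 in sgControl cells. The loop letters CAGTGN, read on the transcript strand, occurred in the first 60 bases of 371 of 6136 parental transcripts with a 5′ UTR at least that long (6.05%), and the median TE of those was 0.09 in parental cells and 0.00 over the 196 measured in sgControl cells, so the letters alone did not mark a poorly translated mRNA.

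Transcripts with AUGs upstream of the coding region had lower TE in both lines, which is given as a description. Transcripts with no AUG in the annotated 5′ UTR had a median TE of 0.11 (n = 4627) in parental and 0.12 (n = 2684) in sgControl cells. Those with 1 had -0.10 (n = 1444) and -0.23 (n = 668), and those with 2 or more -0.36 (n = 1548) and -0.50 (n = 573). The share of poorly translated transcripts rose over these classes from 17.1% to 23.3% and 29.97% in parental cells and from 12.1% to 21.4% and 30.02% in sgControl cells. The order held with length and GC levelled, at 0.14, -0.17 and -0.39 in parental and 0.13, -0.29 and -0.45 in sgControl cells. Upstream AUGs come with longer 5′ UTRs, of 94, 177.5 and 341 bases at the median in the parental classes, and the part of length in this was not tested. The 5′ UTR length itself had a rho with TE of -0.13 and -0.27, and its GC content, with transcript GC levelled, of -0.21 and -0.22. The context of the start codon moved TE little: with A or G at position -3 and G at +4 the median was 0.05 and 0.01, and with neither -0.17 and -0.16.

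**Figure D4:**
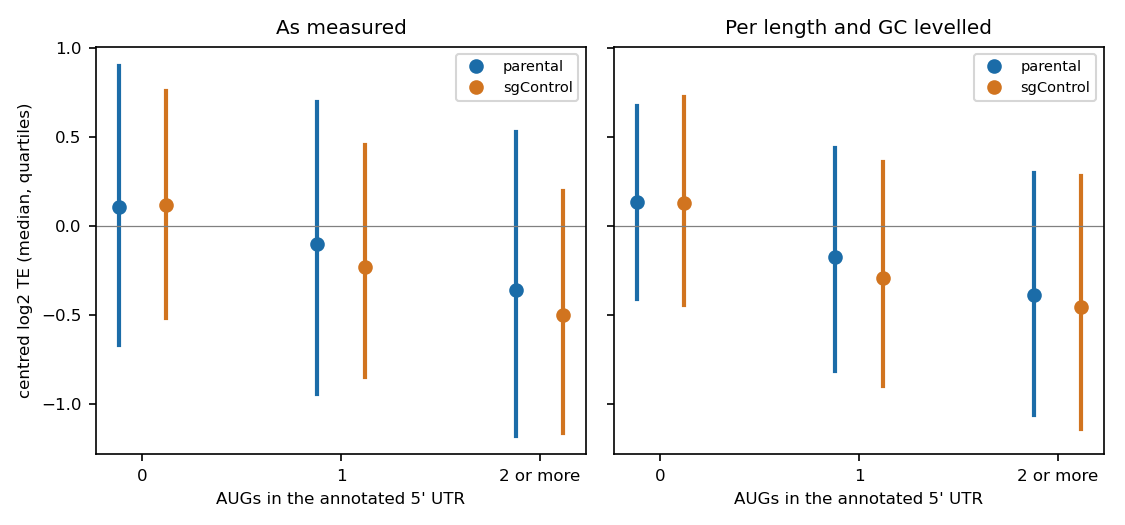
Centred log2 TE (y axis; point, median; bar, quartiles over transcripts) by the number of AUGs in the annotated 5′ UTR (x axis), as measured and with length and GC levelled, in parental and sgControl cells. In both lines and on both scales the median falls from 0 to 1 to 2 or more AUGs, while the quartile bars of neighbouring classes overlap.

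Among mRNAs known for upstream reading frames, ATF4, the transcription factor of the integrated stress response (ENST00000337304, chr22:39520564-39522683), was the lowest in both lines and has 7 upstream AUGs in the isoform listed. Its RPF values were 36.2 and 45.9 over RNA values of 2712 and 2714 in parental cells and 12.7 and 14.9 over 1966 and 2023 in sgControl cells. Its TE was -3.03 ± 0.12 (SE) and -2.90 ± 0.11 (SE), 8.17-fold and 7.44-fold below the typical mRNA. MDM2, the ubiquitin ligase of p53, was poorly translated in both as well (-2.05 ± 0.10 and -2.58 ± 0.17). In parental cells CEBPG, PPP1R15A, BACE1 and SAT1 were further poorly translated members (-2.43, -2.30, -2.17 and -1.54), and all 4 fell under the RPF minimum in sgControl cells, as DDIT3, ATF5 and PTP4A1 did in both lines. The list was not uniform: HIF1A, EPRS1 and UCHL5 were well translated in parental cells (1.97, 1.86 and 1.94) and not called in sgControl cells (-0.39, 0.22 and -0.01), and CEBPB was well translated in sgControl (1.15, or -0.10 with GC levelled and 0.94 without RNA replicate 1) and not called in parental cells (-0.88). With length and GC levelled, HIF1A had -0.14 and -0.83, EPRS1 0.22 and -0.44 and UCHL5 0.58 and -0.43, and none of these was called. On that scale 0 members of the list were well and 7 poorly translated in parental cells, and 0 and 3 in sgControl cells. On the scale as measured, IFRD1, RRM2B, IBTK, NRF1, TIFA and PPP1R15B were not called where they entered. Of the members measured, 6 of 18 were poorly and 3 well translated in parental cells and 4 and 1 of 9 in sgControl cells.

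The mRNAs of polyamine synthesis, which is held in balance through translation, came next. OAZ1, the antizyme that targets ornithine decarboxylase for destruction and is decoded through a frameshift (ENST00000602676, chr19:2269520-2273490), had RPF values of 103 and 93.6 over 10553 and 9907 in parental and of 24.3 and 25.5 over 1711 and 1777 in sgControl cells. Its TE was -3.69 ± 0.08 and -1.89 ± 0.10. ODC1, the decarboxylase itself, was poorly translated in both (-1.01 ± 0.12 and -1.46 ± 0.14), though its parental value lay at the distance of 1 and moved inside it without RPF replicate 1 (-0.90) or RNA replicate 2 (-0.98). AMD1, with the reading frame printed above, had RPF values of 32.9 and 49.9 over 316 and 336 in parental cells and of 17.5 and 14.9 over 873 and 1131 in sgControl cells. Its TE was 0.02 ± 0.20 (adjusted p 0.937, limma) and -1.67 ± 0.17 (adjusted p 0.000291, limma), and -0.68 and -0.87 with length and GC levelled. AZIN1, the antizyme inhibitor, and SMS, spermine synthase, also differed between the lines, at 0.47 and 0.15 in parental and -2.03 and -1.62 in sgControl cells. OAZ2, a second antizyme, was poorly translated in parental cells (-1.34) and fell under the RPF minimum in sgControl cells. DHPS, which uses spermidine in the first step of making hypusine, went the other way in sgControl cells, where it was well translated (1.47, against -0.34 in parental cells). With length and GC levelled DHPS had 0.52 in sgControl cells and was not called. SRM, PAOX and DOHH were not called where they were measured. Over the list 0 of 11 were well and 4 poorly translated in parental cells, and 1 and 5 of 7 in sgControl cells.

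**Figure D5:**
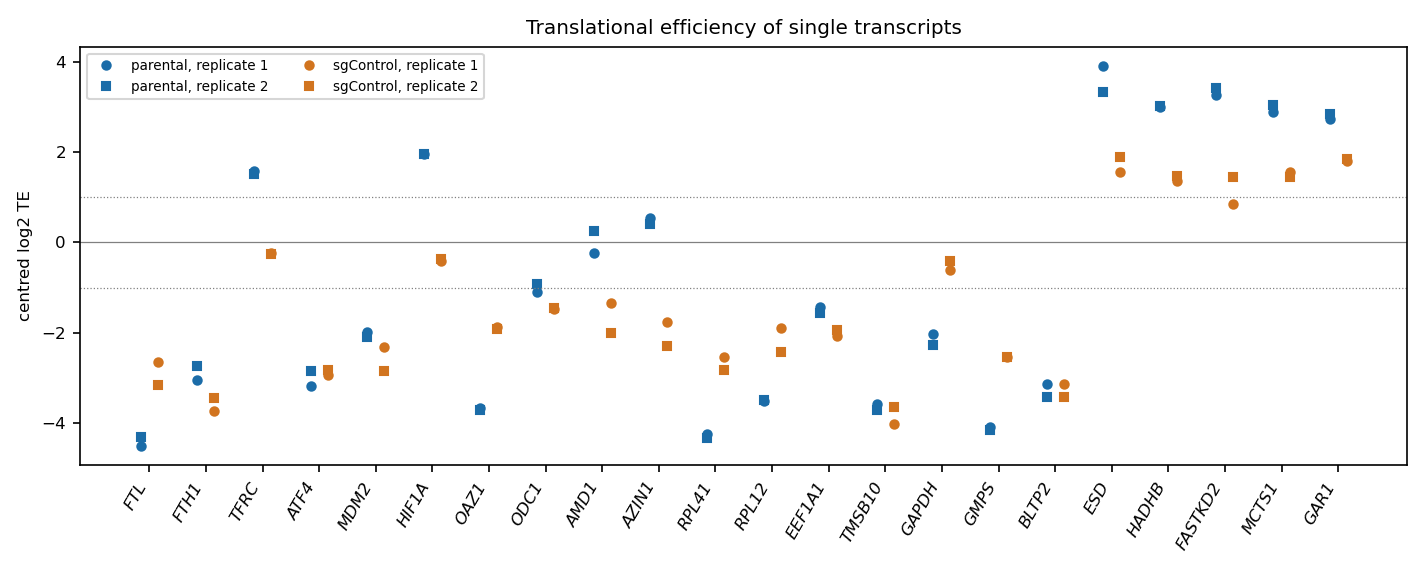
Centred log2 TE (y axis) of single transcripts (x axis), with a point for each replicate of parental and sgControl cells; the solid line is the median transcript and the dotted lines mark a distance of 1. FTL, FTH1, ATF4, MDM2 and OAZ1 lie below -1.8 in all replicates, ESD, HADHB, MCTS1 and GAR1 above 1, and TFRC, HIF1A, AMD1 and AZIN1 differ between the lines.

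Further abundant mRNAs were poorly translated in both lines without belonging to these classes. TMSB10, the actin-sequestering thymosin beta 10, had RPF values of 181 and 163 over RNA values of 17424 and 17096 in parental and of 35.4 and 48.6 over 11131 and 11120 in sgControl cells (TE -3.65 ± 0.07 and -3.85 ± 0.13). Its coding region is 135 bases, and with length and GC levelled it had -2.42 and -3.09. Of the actin cytoskeleton list, 8 of 22 and 5 of 21 were poorly translated (36.4% and 23.8%, against 20.4% and 16.0% of all transcripts). Besides TMSB10, TMSB4X and MYL6 were the others shared by both lines. GMPS, an enzyme of guanine nucleotide synthesis, was among the lowest (-4.13 and -2.54), as was BLTP2, a lipid transfer protein (-3.29 and -3.29). The rest of the 12 most extreme were the kinesin KIF1C, the actin regulator LIMK1, the phosphatase inhibitor PPP1R14B, PEA15 and TLE5, between -4.09 and -3.38 in parental and between -2.73 and -1.16 in sgControl cells. TLE5, the last of these, had -0.63 in sgControl cells without RPF replicate 2. Among selenoproteins, which read a stop codon as selenocysteine, GPX4, the lipid hydroperoxidase, was the only one called poorly translated in both lines (-3.07 and -1.18). In parental cells 3 of 15 were well and 5 poorly translated. In sgControl cells only 4 of the 14 listed passed the minimum, and all 4 were poorly translated. SELENOF and SELENOI had opposite calls, being well translated in parental (1.03 and 1.17) and poorly in sgControl cells (-1.33 and -1.14). With length and GC levelled, 1 of the 4 was poorly translated in sgControl cells. The lowest value of all in parental cells was that of ULBP3, an NK cell ligand, at -8.37. Its mean log2(value + 1) was 15.08 in the RNA and 3.72 in the RPF libraries of parental cells, and 15.51 and 1.09 in those of sgControl cells, where it fell under the RPF minimum. Whether the RNA signal of ULBP3 or of GMPS is from mRNA that is poorly translated was not tested.

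At the other end, 95 transcripts with a parental RPF mean of at least 50 were well translated in both lines. As given above, parental well translated calls recurred in sgControl cells at near the share of all transcripts. ESD, an esterase, had RPF values of 97.6 and 74.1 over RNA values of 50.9 and 58 in parental cells and of 16.2 and 20.9 over 108 and 103 in sgControl cells. Its TE was 3.63 ± 0.20 (12.4-fold above the typical mRNA) and 1.73 ± 0.19 (3.31-fold). HADHB, the beta subunit of the mitochondrial trifunctional protein of fatty acid oxidation, had 3.01 ± 0.19 and 1.42 ± 0.16. FASTKD2, a mitochondrial RNA-binding protein, had 3.35 and 1.16 (0.87 in sgControl cells without RPF replicate 2), MCTS1, a factor that recycles and reinitiates ribosomes, 2.98 and 1.51, and GAR1, a protein of H/ACA ribonucleoprotein particles, 2.79 and 1.83. The other 7 of the 12 most extreme were H4C9, H2BC14, TUBB8, TUBB8B, PPIAL4D, PPIAL4E and PPIAL4F. These belong to families with near-identical copies, among which reads can be shared differently by the RNA and footprint counting, so their values are uncertain.

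Nuclear-encoded mitochondrial mRNAs had medians above the typical mRNA in both lines, by little for the mitochondrial ribosomal proteins of parental cells. Of the respiratory chain subunits, 25 of 76 were well and 8 poorly translated in parental cells and 24 and 3 of 72 in sgControl cells, with medians of 0.44 and 0.70, and 5 were well translated in both. Well translated members were 32.9% and 33.3% of those tested, against 20.0% and 15.7% of all transcripts. All 78 listed mitochondrial ribosomal proteins were tested in parental cells. There 17 were well translated (21.8%, near the 20.0% of all transcripts) and 9 poorly, with a median of 0.08 and 36 below the median transcript. In sgControl cells 57 of the 78 listed passed the minimum, and 22 of these were well and 3 poorly translated (median 0.48). The minimum removes members with few footprints, so that median covers only those that passed. In both lines 6 were well translated, MRPL39 among them (2.75 and 1.07). With length and GC levelled the medians of these groups were 0.25 and 0.51, and 0.21 and 0.66. Proteasome subunits had 13 well (41.9%) and 1 poorly translated of 31 in parental cells and 4 (12.9%, under the 15.7% of all transcripts) and 0 in sgControl cells. PSMA7 was the lowest in both (-1.36 and -0.59), and the medians were 0.38 and 0.43. The parental median was -0.08 with length and GC levelled. DNA replication genes had 14 (35.9%) and 0 of 39, and 5 (14.7%, near the share of all transcripts) and 1 of 34, with medians of 0.53 and 0.60. Cholesterol synthesis genes had 7 well and 2 poorly translated of 21, and 4 and 1 of 17. Their well translated shares were 33.3% and 23.5%, against 20.0% and 15.7% of all transcripts.

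Some groups lay on opposite sides of the typical mRNA in the lines. The mRNAs of replication-dependent histones, which have a median GC content of 58.2% and end in a stem-loop in place of a poly(A) tail, had 9 well and 16 poorly translated of 49 in parental cells (median -0.54), and 31 and 0 of 46 in sgControl cells (median 1.58). These were 18.4% and 32.7% in parental cells, against 20.0% and 20.4% of all transcripts, and 67.4% well translated in sgControl cells, against 15.7%. Their share of the RNA signal was 2.59% ± 0.05 (SD, n = 2) in parental and 0.80% ± 0.00 in sgControl cells, and their share of the footprint signal 1.86% ± 0.10 and 2.04% ± 0.06. With GC levelled the medians were 0.06 and 1.06, and with length and GC levelled -0.41 and 0.83. H4C12 had RPF values of 254 and 219 over 5790 and 5151 in parental and of 68.9 and 77.7 over 206 and 186 in sgControl cells (TE -1.53 and 2.78). The histone genes share much of their sequence, and single members are uncertain. The hnRNP mRNAs, which encode nuclear RNA-binding proteins and have a median GC content of 44.8%, went the other way in their medians. In parental cells 10 of 24 were well translated (41.7%, against 20.0% of all transcripts) and 0 poorly (median 0.90). In sgControl cells 0 of 23 were well and 4 poorly translated (17.4%, near the 16.0% of all transcripts), with a median of -0.38. HNRNPA2B1 had 1.04 and -1.74, and HNRNPC, the protein followed by the study, had 0.08 and -0.38 and was called in neither. Mitosis and kinetochore genes, with a median GC content of 42.0%, had 14 well and 2 poorly translated of 28 in parental (median 1.05) and 3 and 2 of 26 in sgControl cells (median -0.23). With length and GC levelled their medians were 0.01 and -0.34, and BIRC5, the apoptosis inhibitor survivin, was poorly translated in both lines as measured (-1.86 and -1.17).

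The remaining groups were mixed. Over all transcripts tested, 20.0% were well and 20.4% poorly translated in parental cells, and 15.7% and 16.0% in sgControl cells. Of the collagens and matrix proteins, which cells secrete around themselves, 26 of 30 listed passed the minimum in parental and 24 of 27 in sgControl cells. Among those none was poorly translated in either line, and 2 and 8 were well translated, with medians of 0.19 and 0.78. The parental median was -0.40 on the per length scale. Of the cytosolic chaperones, 6 of 18 were well and 0 poorly translated in parental and 0 and 1 in sgControl cells, where HSP90AA1 was the lowest (-1.55). ER chaperones had 4 well and 2 poorly translated of 15, and 0 and 2 of 11. Glycolytic enzymes had 2 well and 5 poorly translated of 15 in parental cells, GAPDH being the lowest, and 2 and 0 of 14 in sgControl cells. Immediate early and short-lived regulators had 3 well and 5 poorly translated of 28, and 4 and 5 of 22, with FOSL2, an AP-1 subunit, the lowest in both (-1.83 and -1.60). Their medians of -0.27 and -0.23 turned to 0.70 and 0.53 with length and GC levelled. C2H2 zinc finger genes, the large family of DNA-binding regulators, mostly fell under the minimum, which 96 of 363 listed transcripts passed in parental and 16 of 179 in sgControl cells. Of those, 10 were well and 25 poorly translated in parental and 1 and 3 in sgControl cells. SR splicing factors had 3 well and 0 poorly translated of 13, and 0 and 2 of 12. Integrins had 3 and 2 of 10, and 2 and 2 of 8. Of the inflammatory cytokine and NF-kB genes, 11 of 18 listed passed the minimum in parental and 5 of 14 in sgControl cells, with 0 well and 4 poorly translated, and 2 and 0.

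The transcripts with the largest footprint signal were mostly below the typical mRNA in TE. Of the 10 highest in parental cells, 6 were poorly translated there and none was well translated. FLNA, the actin crosslinker filamin A, had the largest RPF values, of 2817 and 2547, over RNA values of 64901 and 63154, and a TE of -1.58 ± 0.07 in parental and of 0.10 ± 0.07 in sgControl cells. VIM had -1.13 and -0.75, GAPDH -2.15 and -0.51, TUBB -1.18 and -0.57, and HSPA8 0.24 and -0.58. MYH9, ENO1 and AHNAK lay between -0.68 and -0.43 in parental cells. An unmatched transcript (ENST00000331789) had -1.67 and -1.33. Across all transcripts TE fell with the RNA level, with a rho of -0.59 and -0.72, a relation that RNA in the denominator of TE favours by construction, and it had a rho with the RPF level of 0.18 and 0.04. The length of the 3′ UTR had a rho with TE of -0.12 and -0.49 as measured, and of 0.06 and 0.14 with length and GC levelled, so its sign depended on the scale.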

How the data were processed

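Footprints and RNA of parental MDA-MB-231 and sgControl cells were analysed, 2 libraries of each kind per line, grouped by their titles. Each deposited table holds, for every transcript, a normalised signal on a linear scale. The authors trimmed reads with cutadapt 2.3, collapsed molecular identifiers of footprints, removed rRNA and tRNA reads, aligned to the isoform with the longest coding region of each gene with Bowtie2 2.3.5 and scaled counts by the median of ratios, separately for RNA and RPF and for each table. Per the labels the build is hg38. All RNA values below 60 lay on whole multiples of a step of 0.999 to 1.107 (tolerance 0.02 of a step), while the RPF values did not, so no count test was run and the RPF depth stays unknown.

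A transcript entered when its RNA mean and its RPF mean in the line both reached 10. TE was log2(RPF + 1) minus log2(RNA + 1), minus the median. Each line was tested alone by limma 3.58.1 (R 4.3.3; unpaired, empirical Bayes with a trend, two-sided, 4 libraries) against the median, with calls at an adjusted p under 0.05 and a distance of at least 1. The test was checked on simulated data. Symbols, coordinates and features came from GENCODE version 44, in which 97.9% of the listed transcripts of each table were found (10575 of 10799 and 8788 of 8980). For levelling, a lowess curve of TE on transcript GC (span 0.3) was subtracted; transcript, coding, third-position and 5′ UTR GC, lengths and upstream AUGs had been looked at before transcript GC was taken.

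The members and gene lists were chosen with earlier results of these data known. Named were, for each direction, the 12 most extreme parental transcripts called in both lines (RPF mean of at least 50 for well, RNA mean of at least 500 for poorly translated), the 10 with the largest parental RPF values, the ends of lists and members of the uORF, polyamine and iron lists (any of which the rule allowed). HNRNPC as the studied gene and RPS6, EIF5B, MRPL41, H4C12, EEF1A1, PABPC1, TMSB4X, MYL6 and PLCG2 were further named, some after their values were seen. One member of the iron list is counted but not reported here by its values.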

Additional observations from a re-analysis of the deposited data

Results flagged for a closer look

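For 8 groups of mRNAs both replicates of parental cells had a median TE on one side of the typical mRNA and both replicates of sgControl cells on the other. The difference between the lines was not tested, and line and table cannot be told apart. The parental median minus the sgControl median was -2.13 for replication-dependent histones and -1.19 for inflammatory cytokine and NF-kB genes. It was 1.28 for hnRNP proteins, 1.28 for mitosis and kinetochore genes, 0.824 for cytosolic chaperones, 0.497 for translation initiation factors, 0.348 for SR splicing factors and 0.215 for integrins. With length and GC levelled, the parental and sgControl medians were 0.19 and 0.01 for the cytokine and NF-kB genes, -0.16 and -0.28 for cytosolic chaperones, -0.08 and -0.27 for initiation factors and -0.20 and -0.32 for integrins, on the same side of 0 in each of these groups. They were -0.41 and 0.83 for histones, 0.48 and -0.20 for hnRNP proteins, 0.01 and -0.34 for mitosis genes and -0.03 and 0.75 for SR factors. The rho of TE with transcript GC had opposite signs in all replicates of the lines, with -0.505 in parental and 0.419 in sgControl replicate 1.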

How the results depend on the processing

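Counts are given in the order parental well, parental poorly, sgControl well, sgControl poorly and called alike in both lines, against 1665, 1701, 675, 688 and 391 as reported. They were 3105, 817, 1955, 140 and 970 when centred on the ratio of library totals, which moves the median of all transcripts, so that the division into well and poorly translated holds only relative to the median mRNA. They were 3043, 3084, 1400, 1411 and 1286 at the adjusted p alone, 897, 1051, 264, 298 and 144 under limma treat, and 677, 650, 86, 106 and 53 at a minimum mean of 50, where fewer transcripts were tested. Without the filter they were 2154, 2333, 1562, 1664 and 1076, and with an RNA minimum of 100 alone 1598, 1797, 1034, 1106 and 752. GC levelling gave 1173, 1398, 446, 605 and 502, and levelling with length 1030, 1187, 606, 599 and 563; both were chosen after seeing the data. The cause of the other shifts was not tested. Leaving out each library in turn gave 1605 to 1728, 1675 to 1754, 666 to 699, 683 to 742 and 381 to 401. A pseudocount of 0.5 or 5, the per length scale and robust moderation kept all 5 counts within 1.5 times. The deviations of same-numbered RPF and RNA libraries had an r of 0.03 in parental and of -0.00 in sgControl cells, so the numbers did not pair them; with the replicate block the counts were 1668, 1702, 677, 689 and 391.

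Of the called single transcripts, HIF1A changed sign in parental cells with length and GC levelled (-0.14), and CEBPB in sgControl cells with GC levelled (-0.10). The other called transcripts named by the rule kept their direction under each alternative in which they were tested. Leaving out 1 library ended the call of ODC1 in parental cells and of FASTKD2, TLE5, AHNAK and CEBPB in sgControl cells, all of which kept their sign. Centring on library totals turned the sign of a group median for 8 groups in parental cells, among them the uORF, polyamine, iron and histone lists, and for 11 in sgControl cells, among them initiation factors, uORF mRNAs, hnRNP and mitosis genes. With length and GC levelled it turned for 8 and 4 groups, at a minimum mean of 50 for 7 and 3, and on the per length scale for 6 and 3. It turned for 3 and 3 with GC levelled, 3 and 0 with a pseudocount of 5, and 1 and 3 without the filter. The RPF depth is unknown, so its part in any of these values was not tested.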
